A study of Mus musculus with 11 samples.

Results

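The complement components of whole neonatal mouse skin were examined as 9 genes, C1qa, C1qb, C1qc, C1ra, C2, C3, C4b, Cfb and Serping1, taken by gene name from a table of 49315 genes. Their levels were compared between 4 groups of Foxp3-DTR mice, 11 mice in all, with 1 library of whole skin from each mouse. These mice express the diphtheria toxin (DT) receptor under the Foxp3 promoter, so that DT removes Foxp3+ regulatory T cells (Tregs), and all groups, controls included, carry this allele on a C57BL/6J background. The 2 control mice received PBS. The 3 ΔETreg mice (EarlyDT) received 30 ng of DT per g on postnatal day (P) 6 and P8 and were harvested on P9, the 3 ΔLTreg mice (LateDT) received the same dose on P10 and P12 and were harvested on P13, and the 3 ΔTreg mice (FullDT) received it on P6, P8, P10 and P12 and were harvested on P13. No harvest day is labelled for the controls, so treatment and age cannot be told apart in a comparison with control, whereas ΔTreg and ΔLTreg skin have the same age. The paper describes its comparisons as age-matched, with control skin on P9 and on P13. Each comparison with control here rests on the same 2 control mice, and the labels do not say which age either had.

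Complement is a cascade of plasma and tissue proteins that tags microbes and dying cells for removal. In the classical pathway, the recognition protein C1q, built of A, B and C chains, activates the proteases C1r and C1s, which cleave C4 and C2 into an enzyme that cleaves C3. In the alternative pathway, factor B takes the place of C2 and enlarges the deposit of C3, while C1 inhibitor, encoded by Serping1, blocks C1r and C1s. The liver makes most circulating complement, but macrophages are the main source of C1q, and skin fibroblasts, keratinocytes and myeloid cells make several other components.

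The libraries held between 23377571 and 34159435 counts on genes. Foxp3, the gene of the targeted cells, was counted 20 and 14 times in the control mice, 10 to 16 times in the ΔETreg mice, 13 to 23 times in the ΔLTreg mice and 9 to 19 times in the ΔTreg mice. In CPM (counts per 1000000 counts in the library, with the library total scaled by the TMM method) it was at 0.700 and 0.558 in the control mice, 0.348 to 0.526 in the ΔETreg mice, 0.407 to 0.685 in the ΔLTreg mice and 0.386 to 0.564 in the ΔTreg mice. On that scale the ΔETreg mice lay below both controls, and the other depleted groups overlapped with the controls. Keratinocyte and fibroblast markers were abundant in every mouse, as the tissue label states, with sums of 8208 to 10592 and 6579 to 18061 CPM. Replicate 3 of ΔLTreg stood apart for the genes described here, and it was the lowest of the 11 mice for 6 of the 9 components. It was also the lowest for 12 of 14 macrophage markers and 8 of 8 fibroblast markers, and the part these markers play in its low complement levels was not tested. In bulk skin, fewer cells of a type and less RNA per cell cannot be told apart.

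All 9 components were higher in ΔTreg skin than in every other group, and none of them passed the test between control, ΔETreg and ΔLTreg skin. The rise against control ranged from a log2 fold change of 1.68 for C2 to 6.23 for C3. All 9 passed an adjusted p of 0.05, where 12.1% of the 18375 genes tested rose. The median log2 fold change of the 9 was 2.16, beside -0.01 over all genes tested. In all 9 genes the lowest ΔTreg mouse was above the highest of the other 8 mice, an order found in 12.9% of the genes tested.

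**Figure D1:**
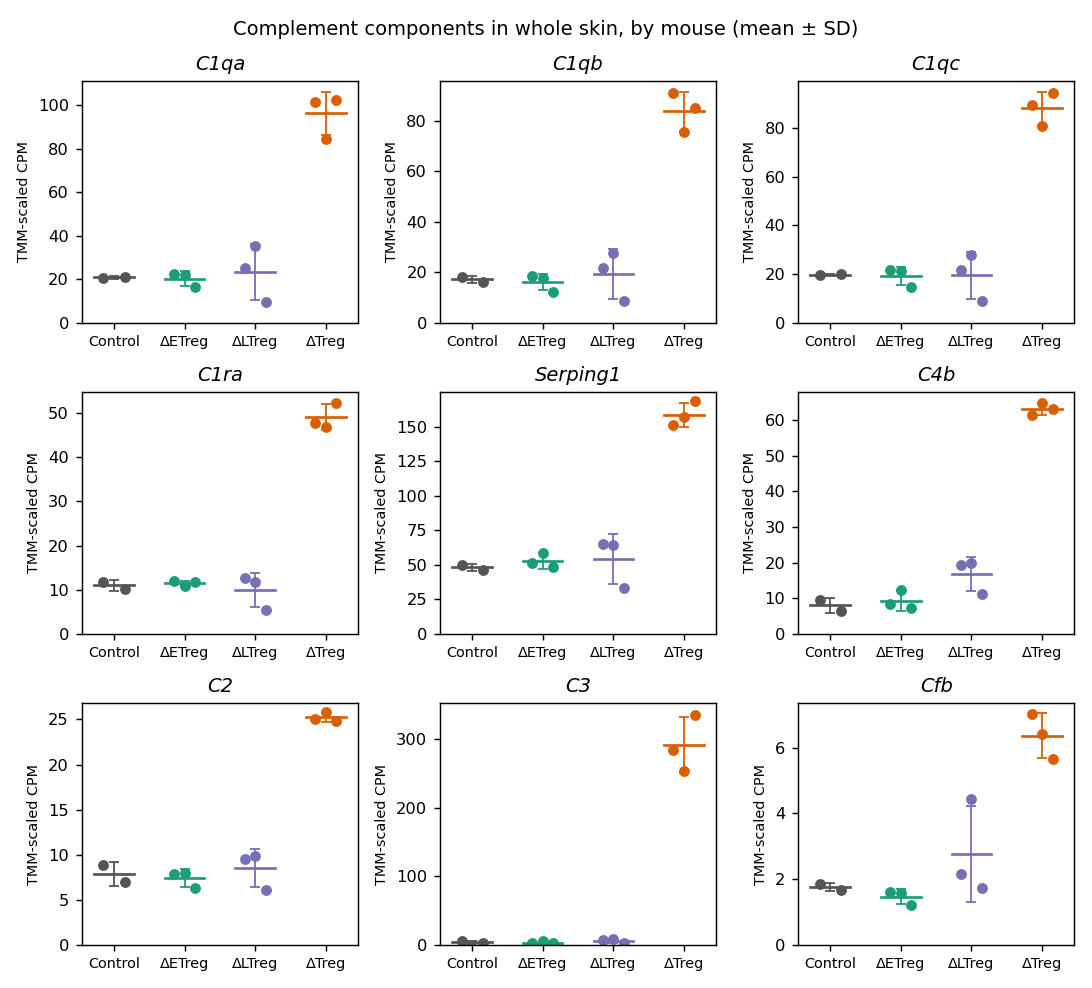
TMM-scaled CPM (vertical axis) of each of the 9 components in each mouse, 1 point a mouse, by group (horizontal axis), with the group mean as a line and the SD as a bar (2 control mice and 3 mice in each other group). In every panel the 3 ΔTreg mice sit above the other 8 mice, and the widest gap is that of C3, from 7.84 to 254 CPM.

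C3, on which all complement pathways converge, had 5.39 and 2.23 CPM in the control mice, 2.58, 5.23 and 2.01 in the ΔETreg mice, 6.88, 7.84 and 2.63 in the ΔLTreg mice, and 285, 254 and 336 in the ΔTreg mice. The other 8 mice overlapped between groups, and the ΔTreg mice stood far above them. In counts, C3 went from 47 to 231 in the other mice to 6651, 8564 and 10873 in ΔTreg skin. The log2 fold change of C3 was 6.23 against control (standard error, SE, 0.490, adjusted p = 1.27e-05), a 75.3-fold difference, which placed C3 45th of 18375 genes. Against ΔLTreg skin of the same age it was 5.67 (SE 0.390, adjusted p = 6.32e-06), or 51.0-fold. The control mice differed from each other in C3 by more than they did in C1qa or Serping1, and the log2 fold change of C3 against control was 7.03 without control replicate 1 and 5.75 without control replicate 2, past the threshold in each case.

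RefSeq held promoters of 4 of the 9 components (C1qb, C1qc, C1ra and C3, GRCm38.p6, from 250 bases before to 50 bases after the start site). The bases before the C3 start are shown because C3 had the largest change, with short stretches of the other genes for comparison. Capitals mark matches to letters of the NF-kB motif (GGGA, then 4 bases of any kind, then CC), the C/EBP motif (TTGCNNAA) or the GAS, the element bound by STAT factors (TTCNNNGAA), on either strand. They lie at chr17:57228137-57228386 (minus strand, C3), chr4:136886371-136886400 (minus strand, C1qb), chr4:136892935-136892964 (minus strand, C1qc) and chr6:124512637-124512661 (plus strand, C1ra).
C3: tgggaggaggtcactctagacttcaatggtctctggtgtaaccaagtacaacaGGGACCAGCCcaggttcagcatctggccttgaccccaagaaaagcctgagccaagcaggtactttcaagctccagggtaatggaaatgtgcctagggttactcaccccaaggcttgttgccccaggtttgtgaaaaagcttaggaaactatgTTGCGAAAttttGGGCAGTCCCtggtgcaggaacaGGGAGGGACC
C1qb: agccatctgGGGATAGTCCCtaagaacagg
C1qc: gtgggggaggGGGCTCTCCCtgctctgggc
C1ra: TTATGCAAatgcttcaTTCCCTGAA
C3 held 3 NF-kB matches, beginning 197, 33 and 10 bases before the start, and a C/EBP match 45 bases before it. C1qb held overlapping NF-kB matches 191 and 190 bases before the start. C1qc held 1 match 40 bases before its RefSeq start, which lies 151 bases inside the GENCODE model of the gene. C1ra held no NF-kB match, but a C/EBP match 16 bases and a GAS match 32 bases after its RefSeq start, which lies 216 bases inside the GENCODE model of the gene. The interferon-stimulated response element (ISRE, GAAA, then 2 bases of any kind, then GAAA) matched in none of the 4. Of 32851 RefSeq promoters of the same length, 20.7% held the NF-kB letters, 10.8% the C/EBP letters, 8.30% the GAS letters and 3.44% the ISRE letters, so these matches describe the sequence and identify no binding site.

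The C1q chains rose together and kept their proportions. C1qa, the A chain, had 20.3 and 21.2 CPM in the control mice, 22.5, 21.9 and 16.4 in the ΔETreg mice, 25.2, 35.3 and 9.49 in the ΔLTreg mice, and 102, 84.7 and 103 in the ΔTreg mice. The ΔLTreg mice spanned the values of the control and ΔETreg mice, and the ΔTreg mice were clear of all of them. C1qa rose by a log2 fold change of 2.21 in ΔTreg against control skin (SE 0.394, adjusted p = 0.00238) and by 2.05 against ΔLTreg skin (SE 0.335, adjusted p = 0.00162). C1qb, the B chain, went from 8.36 to 27.8 CPM in the other 8 mice to 75.6 to 91.0 in ΔTreg skin, with a log2 fold change of 2.29 against control (SE 0.377). C1qc, the C chain, went from 8.77 to 27.7 to between 80.9 and 94.3 CPM, with a log2 fold change of 2.16 (SE 0.357). Per kb of exon, C1qb stood at 0.716 to 0.857 of C1qa and C1qc at 0.423 to 0.523 of C1qa in the other 8 mice. The ΔTreg mice, at 0.792 to 0.856 and 0.475 to 0.514, lay within these ranges, so no chain left the proportion seen in the other mice. The 3 genes are neighbours on chromosome 4 of GRCm38, all on the minus strand, C1qa (136895917 to 136898803) 2851 bases from C1qc (136889804 to 136893065) and C1qc 3616 bases from C1qb (136880129 to 136886187).

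C1q is known from macrophages, and the sum of their markers was also highest in ΔTreg skin. The 14 macrophage markers summed to 638 to 698 CPM in control, 598 to 683 in ΔETreg, 492 to 654 in ΔLTreg and 976 to 1177 in ΔTreg skin. In ΔTreg against control skin 7 of the 14 rose, beside 12.1% of all genes tested, with a median log2 fold change of 1.14. Maf, a transcription factor and the most abundant of the 14, had a value of 0.22 (adjusted p = 0.0831) and did not pass the test. The ratio of the summed C1q chains to the 14 markers was 0.0541 to 0.139 in the other 8 mice and 0.240 to 0.255 in ΔTreg skin. Against the sum of Adgre1, Csf1r and Cd68 alone, markers chosen after their values were seen, the ratio was 0.696 and 0.837 in the control mice, 0.796 to 0.926 in the ΔETreg mice, 1.22, 1.06 and 0.760 in the ΔLTreg mice, and 1.75 to 1.91 in the ΔTreg mice. The ΔTreg mice stood apart in each ratio, and how far ΔLTreg replicates 1 and 2 lay above the controls depended on the markers summed. How much of the C1q rise follows macrophage content was not tested.

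**Figure D2:**
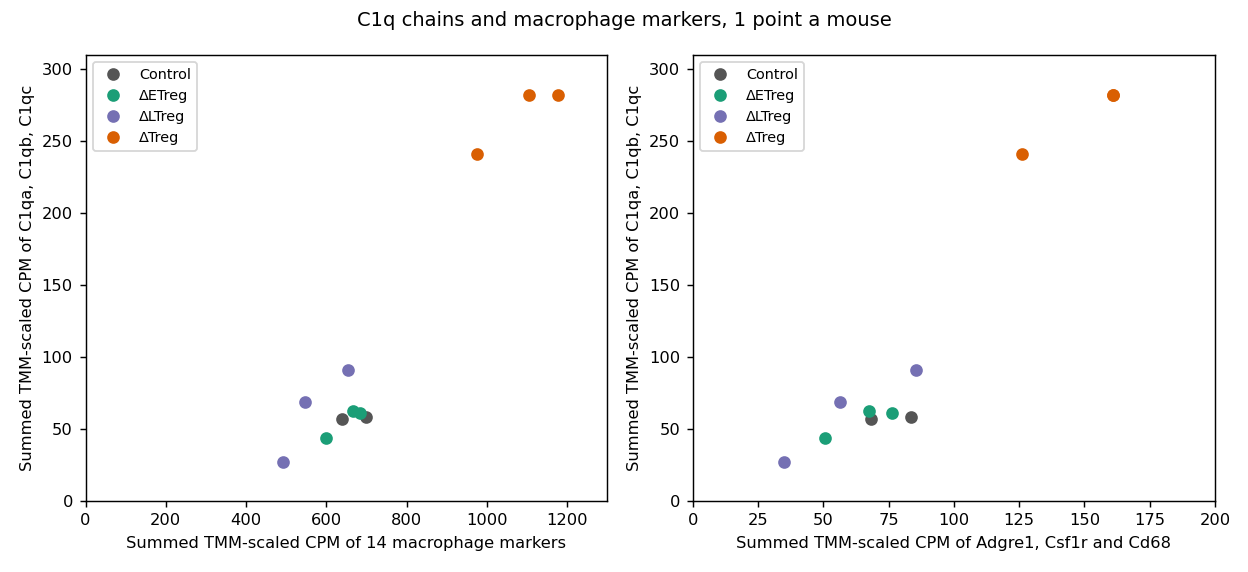
Summed TMM-scaled CPM of C1qa, C1qb and C1qc (vertical axis) against summed TMM-scaled CPM of macrophage markers (horizontal axis), 1 point a mouse, for all 14 markers (left) and for Adgre1, Csf1r and Cd68 (right). The ΔTreg mice are highest on both axes, with C1q sums of 241 to 282 CPM against 26.6 to 90.8 CPM in the other 8 mice, and 2 of their points coincide on the right.

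C1ra (chromosome 6 of GRCm38, 124512405 to 124523443) encodes the mouse C1r protease that C1q activates, and Serping1 (chromosome 2, 84765387 to 84775444) the inhibitor that restrains it. C1ra had 11.8 and 10.1 CPM in the control mice, 11.9, 10.9 and 11.7 in the ΔETreg mice, 12.6, 11.7 and 5.48 in the ΔLTreg mice, and 47.9, 47.0 and 52.5 in the ΔTreg mice. Apart from the low ΔLTreg replicate 3, the mice outside the ΔTreg group were nearly level. C1ra rose by a log2 fold change of 2.16 against control (SE 0.262, adjusted p = 0.000214) and by 2.31 against ΔLTreg skin (SE 0.226). Serping1 had the highest CPM of the 9 genes outside ΔTreg skin, with 49.9 and 46.1 in the control mice, 51.1, 58.8 and 48.1 in the ΔETreg mice, 64.8, 64.1 and 33.3 in the ΔLTreg mice, and 151, 157 and 168 in the ΔTreg mice. Its log2 fold change was 1.73 against control (SE 0.231, adjusted p = 0.00041) and 1.55 against ΔLTreg skin (SE 0.198). The ratio of Serping1 to C1ra counts was 4.11 to 6.07 in the other 8 mice and 3.15 to 3.34 in ΔTreg skin. C1s1, which encodes the partner protease C1s and lies 6901 bases from C1ra on chromosome 6, rose by a log2 fold change of 1.67 (SE 0.151, adjusted p = 3.02e-05). The ratio of Serping1 to C1s1 counts was 1.85 to 2.503 in the other 8 mice and 2.17 to 2.28 in ΔTreg skin. C1ra shares 34.5% of its windows of 100 bases with the near-identical C1rb. C1rb was at 0 to 8 counts in all mice, and reads wholly within the shared sequence could not be counted for either gene under unique counting.

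C4b, the mouse complement component 4, was the only one of the 9 with all 3 ΔLTreg mice above both controls, an order found in 15% of the genes tested. It had 9.39 and 6.49 CPM in the control mice, 8.25, 12.4 and 7.16 in the ΔETreg mice, 19.3, 19.9 and 11.1 in the ΔLTreg mice, and 61.6, 65.0 and 63.3 in the ΔTreg mice. The lowest ΔLTreg mouse lay below the highest ΔETreg mouse. C4b rose by a log2 fold change of 2.99 in ΔTreg against control skin (SE 0.287, adjusted p = 4.53e-05) and by 1.92 against ΔLTreg skin (SE 0.228, adjusted p = 0.000208). Between ΔLTreg and control skin its log2 fold change was 1.07 (SE 0.277) and missed the threshold, with an adjusted p of 0.0546. It passed in 3 of 12 alternative settings, among them DESeq2 (adjusted p = 0.00758) and the fit without ΔLTreg replicate 3 (adjusted p = 0.00805), and over the 12 settings the adjusted p ran from 4.42e-09 to 0.252. C4b shares 15.2% of its windows with its near-identical copy C4a, which had 0.797 to 1.93 CPM and rose against control (log2 fold change 0.94, adjusted p = 0.00644).

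C2, the protease that joins C4 in the classical enzyme, had a lower log2 fold change than C4b, a difference between genes that was not tested. It measured 8.83 and 6.93 CPM in the control mice, 7.91, 8.02 and 6.30 in the ΔETreg mice, 9.57, 9.84 and 6.07 in the ΔLTreg mice, and 25.1, 25.8 and 24.9 in the ΔTreg mice. The ΔTreg mice differed little from each other, and the other groups overlapped. C2 rose by a log2 fold change of 1.68 against control (SE 0.193, adjusted p = 0.000156) and by 1.57 against ΔLTreg skin (SE 0.166). The ratio of C2 to C4b counts was 0.940 and 1.07 in control, 0.647 to 0.958 in ΔETreg, 0.494 to 0.546 in ΔLTreg and 0.393 to 0.407 in ΔTreg skin. The groups did not overlap in this ratio, apart from control and ΔETreg skin.

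Cfb, factor B of the alternative pathway, was the least abundant of the 9. It had 1.86 and 1.67 CPM in the control mice, 1.60, 1.58 and 1.20 in the ΔETreg mice, 2.15, 4.43 and 1.72 in the ΔLTreg mice, and 7.03, 6.41 and 5.66 in the ΔTreg mice. ΔLTreg replicate 2 was closest to the ΔTreg mice. Cfb rose by a log2 fold change of 1.84 in ΔTreg against control skin (SE 0.338, adjusted p = 0.00286) and by 1.22 against ΔLTreg skin (SE 0.277, adjusted p = 0.0113). C2 (chromosome 17, 34862604 to 34898265) and Cfb (34856374 to 34862518) lie 85 bases apart on the minus strand, in the same part of the chromosome as C4b (34728380 to 34743882), while C3 lies farther along (57203970 to 57228136). The annotated gene Gm20547 runs through both and shares 79.5% of the exon bases of Cfb and 42.8% of those of C2, and it had 0 counts in all 11 libraries. Zbtb12, on the opposite strand, shares 4.16% of the exon bases of C2. Reads in shared exons may have been left uncounted, so the levels of Cfb and C2 against other genes are uncertain, while the comparisons between mice use the same exons throughout. C1qa, C1qb, C1qc, C3 and Serping1 shared no such window with another gene.

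Scaled to exon length, the order of the components changed in ΔTreg skin. In control skin Serping1 (20.6 ± 1.16 CPM per kb, SD, n = 2) and C1qa (20.0 ± 0.598) led and did not differ beyond their spread, followed by C1qb (15.8 ± 1.35), C1qc (10.2 ± 0.0571), C1ra (3.68 ± 0.417), C2 (2.03 ± 0.346) and C4b (1.39 ± 0.359), with C3 (0.741 ± 0.435) and Cfb (0.625 ± 0.0458) last and within the spread of C3. In ΔTreg skin the order was C1qa (92.6 ± 9.69 CPM per kb, SD, n = 3), C1qb (77.1 ± 7.15), Serping1 (68.2 ± 3.75), C3 (56.8 ± 8.04), C1qc (45.7 ± 3.52), C1ra (16.5 ± 0.986), C4b (11.1 ± 0.298), C2 (6.52 ± 0.128) and Cfb (2.25 ± 0.244). C3 moved from the eighth place to the fourth. Reads in exons that C2 and Cfb share with Gm20547 may be uncounted, while their full exon length was the divisor. The places of C2 and Cfb are therefore uncertain, and with them the eighth place of C3 in control skin. As a share of the summed CPM of the 9 genes, C3 took 1.68 to 3.76% in the other 8 mice and 33.2, 31.9 and 36.1% in ΔTreg skin. The sum itself was 131 and 145 CPM in control, 120 to 158 in ΔETreg, 86.9 to 209 in ΔLTreg and 796 to 932 in ΔTreg skin.

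**Figure D3:**
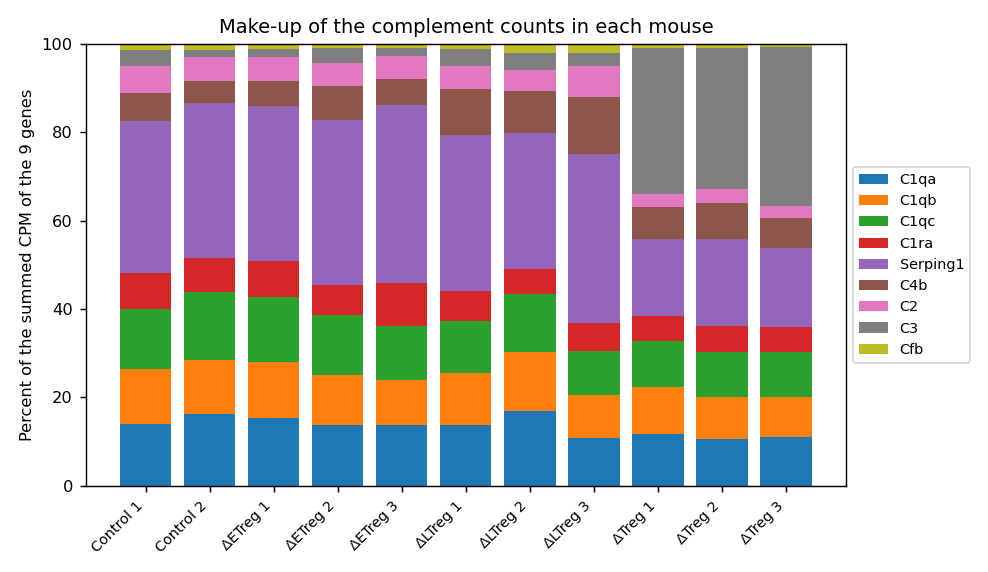
Share of each of the 9 components in their summed TMM-scaled CPM (vertical axis, percent) in each mouse (horizontal axis). C3 takes 1.68 to 3.76% in the 8 mice outside the ΔTreg group and 31.9 to 36.1% in the 3 ΔTreg mice.

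Depletion in either window alone gave no component past the threshold. Between ΔETreg and control skin 0 of 9 passed in edgeR (0.00544% of all genes tested were higher), 0 of 9 had an unadjusted p under 0.05, DESeq2 called 0, and the log2 fold changes ran from -0.27 for Cfb to 0.23 for C4b. Between ΔLTreg and control skin 0 of 9 passed, where 1.86% of the genes tested were higher and 2.69% lower, 1 had an unadjusted p under 0.05 (C4b) and DESeq2 called 1. Between ΔETreg and ΔLTreg skin 0 of 9 passed, where 3.27% were higher and 3.12% lower in ΔETreg skin. In that comparison 2 components had an unadjusted p under 0.05 and DESeq2 called 1, with log2 fold changes of -0.84 for C4b (adjusted p = 0.0612) and -0.89 for Cfb (adjusted p = 0.118), both lower in ΔETreg skin. Without ΔLTreg replicate 3, 2 components passed between ΔLTreg and control skin (C4b and Serping1) and 3 between ΔETreg and ΔLTreg skin (C1qb, C4b and Cfb). ΔTreg skin was higher for 9 of 9 against ΔLTreg skin, where 10.7% of all genes rose, and for 9 of 9 against ΔETreg skin, where 13.2% rose. Each of these 3 counts of 9 stood in every alternative setting and with each mouse left out.

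**Figure D4:**
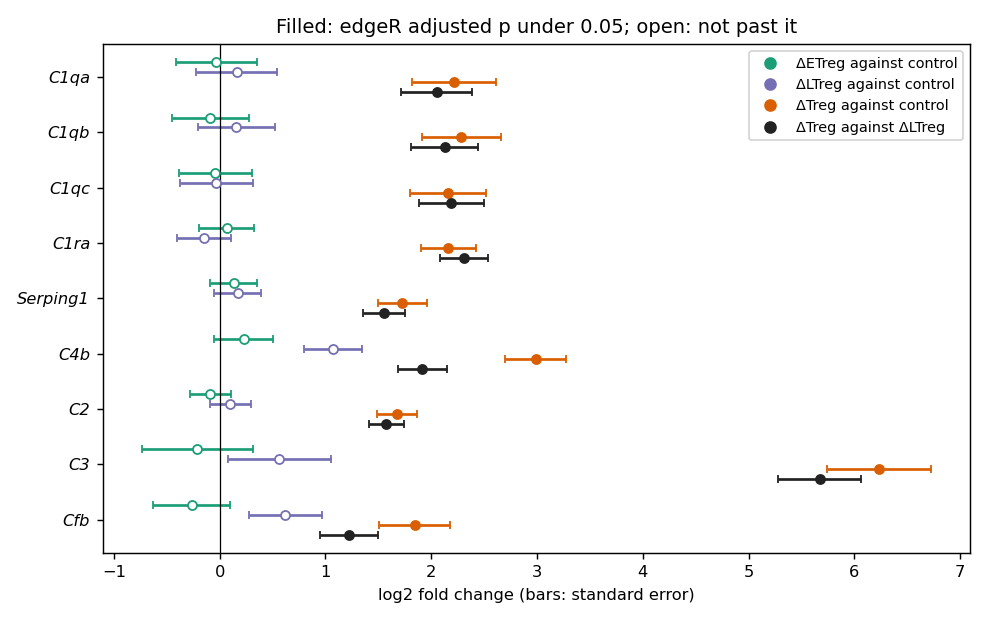
Log2 fold change (horizontal axis) of the 9 components in 4 comparisons, with the standard error of edgeR's fit as a bar and filled points for an adjusted p under 0.05. The points of ΔTreg skin lie between 1.22 and 6.23 and are filled, and those of ΔETreg and ΔLTreg skin against control are open, the highest being C4b in ΔLTreg skin at 1.07.

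Of 46 further complement genes, 29 could be tested. In ΔTreg against control skin 11 of the 29 rose and 1 fell, beside 12.1% of all genes higher and 9.39% lower, with a median log2 fold change of 0.55. The 17 not tested, among them Hc (which encodes C5), C9 and the mannose-binding lectin genes Mbl1 and Mbl2, had at most 10 counts in any mouse. Against ΔLTreg skin 11 rose and 2 fell, where 6.11% of all genes fell, and against ΔETreg skin 12 rose and 2 fell, where 9.81% of all genes fell.

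In the classical and lectin group, 5 of the 7 testable genes rose against control. Beside C1s1, these were Masp1, a protease of the lectin pathway (log2 fold change 0.97, adjusted p = 0.00352), C4a, and the lectins Fcna (1.44, adjusted p = 0.0175) and Colec11 (1.05, adjusted p = 0.0343). Colec11 was at 1.19 to 1.89 CPM in ΔTreg and 1.25 to 1.75 CPM in ΔLTreg skin of the same age, with a log2 fold change of -0.06 between these groups (adjusted p = 0.896), and C4a had 0.49 there (adjusted p = 0.0694). In the alternative group, Cfp, which encodes properdin, the stabiliser of the C3 convertase, went from at most 12.04 CPM in the other 8 mice to 30.7 to 33.2 in ΔTreg skin (log2 fold change 1.52, adjusted p = 0.000229). Cfd, which encodes factor D, the protease that cleaves factor B and a product of fat cells, varied from 5.47 to 59.6 CPM between mice and did not pass the test (log2 fold change 0.11, adjusted p = 0.922). In the terminal group, C6, a part of the membrane attack complex, was at 0.0657 to 0.279 CPM in the other mice and at 3.30, 3.71 and 4.79 in ΔTreg skin (log2 fold change 4.23, adjusted p = 2.4e-05). C8g, of the same complex, was at 0.943 to 1.54 CPM over all mice (log2 fold change 0.24, adjusted p = 0.461).

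Of 7 testable receptors 4 rose against control, all of them known from myeloid cells. Itgam, Itgb2 and Itgax, which encode the subunits of complement receptors 3 and 4, had log2 fold changes of 2.43, 2.26 and 1.79 (adjusted p = 0.000325, 0.00207 and 0.00115), and C3ar1, the receptor of C3a, had 1.73 (adjusted p = 0.0495). Cd93, once described as a C1q receptor and found on endothelium, fell by 0.83 on the log2 scale, with an adjusted p of 0.00152, from 33.2 to 41.4 CPM in the other mice to 17.5 to 25.3. Of 6 endothelial markers, Kdr (log2 fold change -0.67, adjusted p = 0.00303) and Cdh5 (-0.36, adjusted p = 0.00374) also fell and Pecam1 (0.69, adjusted p = 5.62e-06) rose, and the part of endothelial content in the fall of Cd93 was not tested. Of the 11 testable regulators beyond Serping1, 0 passed against control in edgeR, and 0 had an unadjusted p under 0.05. Clu, which encodes clusterin and was the most abundant, did not pass (log2 fold change 0.21, adjusted p = 0.187) and Cr1l, which encodes Crry, had 0.17 (adjusted p = 0.147). Against ΔLTreg skin 1 of these 11 regulators rose, where 10.7% of all genes rose and 6.11% fell, and 1 fell. The 1 that fell was Clu, by 0.36 on the log2 scale, with an adjusted p of 0.0213. Against ΔETreg skin 2 of the 11 rose and 1 fell, where 13.2% of all genes rose and 9.81% fell.

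In ΔLTreg against control skin, 2 of the 29 further genes passed, where 1.86% of all genes tested were higher and 2.69% lower. Clu rose from 374 and 453 CPM in control to 577 to 686 in ΔLTreg skin (log2 fold change 0.57, adjusted p = 0.0141), and Colec12, a scavenger receptor of the collectin family, fell by 1.04 on the log2 scale, with an adjusted p of 0.0271, from 24.1 and 26.6 to 7.77 to 15.2 CPM. The same 2 genes differed between ΔETreg and ΔLTreg skin, with log2 fold changes of -0.76 and 0.99. Of all genes tested, 3.27% were higher and 3.12% lower in ΔETreg skin in that comparison. Against control, 0 of the 29 passed without control replicate 1 and 1 without control replicate 2. Between ΔETreg and control skin 0 of the 29 passed in edgeR, and 0 had an unadjusted p under 0.05.

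Markers of other cell types also differed in ΔTreg against control skin, and their part in the rise of the components was not tested. In this comparison 12.1% of all genes tested rose and 9.39% fell. Of the T cell markers 7 of 8 rose, with a summed level of 129 to 153 CPM against 60.3 to 102 in the other mice. Thy1 made up most of this sum, at 80.9 to 92.5 CPM in ΔTreg skin and 46.7 to 87.4 in the other mice. Cd3g, the next most abundant, was at 12.3 to 13.7 CPM in ΔTreg skin and 4.28 to 6.88 in the other mice. All 6 testable neutrophil markers rose, with sums of 33.8 to 42.3 CPM against 8.97 to 18.4, while the defining gene Ly6g was at 0 to 2 counts in every mouse. S100a8 was the largest part of the neutrophil sum in every mouse, at 15.1 to 15.5 CPM in ΔTreg skin and 6.61 to 13.9 in the others. Of 7 monocyte markers 2 rose past the threshold, and all 7 had a positive log2 fold change, with a median of 2.27. Ccr2 counts, 316 and 81 in the control mice, differed between them in the same direction as C3. Of 8 dendritic cell markers 2 rose and 1 fell. Of 8 fibroblast markers 3 fell, Col1a1 and Col1a2 among them, and 2 had a positive log2 fold change, with a median of -0.36. Their summed level was 7738 to 8564 CPM in ΔTreg skin against 6579 to 18061 in the other mice. Against ΔLTreg skin of the same age, 3 of the 8 rose and 0 fell, where 10.7% of all genes rose and 6.11% fell. Hepatocyte markers, which would show liver RNA, summed to at most 0.564 CPM in any mouse, with Alb at no more than 8 counts and Fga at 0. Of 21 interferon response genes 21 rose against control, among them Tap1 (log2 fold change 2.76) and Gbp2 (4.98). In ΔLTreg against control skin 8 of the 21 rose, where 0 of the 9 components and 1.86% of all genes tested did.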

How the data were processed

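Whole skin biopsies of 4 mm were sequenced by the authors as paired reads. The authors trimmed reads with Trimmomatic 0.36, aligned them to GRCm38 with STAR 2.5.2b and deposited raw counts of unique exon reads from featureCounts (Subread 1.5.2) as 1 table of 49315 genes. The strand setting and annotation release are not given in the sources used here. Coordinates and exon lengths come from GENCODE M21 on the same build. The titles of all libraries share 1 prefix, and the labels do not say whether it marks a batch.

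Counts were tested in R 4.3.3 with edgeR 4.0.16 (filterByExpr, TMM, quasi-likelihood test) in 1 fit of all 11 libraries, with Benjamini-Hochberg adjustment over 18375 genes in each of 6 comparisons. Standard errors (SE) were obtained by dividing each log2 fold change by the root of its F statistic. Replicates are single mice, numbered by order of deposit. Intervals of counting error do not cover library preparation, since reads carry no molecular identifiers. The code was tested on simulated data.

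The 9 components and all gene lists were chosen with earlier results of these data known. Genes named are the components, the 3 further complement genes of each role with the smallest p in ΔTreg against control skin, those past adjustment in ΔETreg or ΔLTreg against control skin, near-identical or overlapping partners, the 2 marker genes of each list with the highest CPM, and the 3 genes most correlated with each component. Other genes named (Colec11, C3ar1, Itgb2, Kdr, Adgre1, Csf1r, Cd68, Ly6g, Fga, Hc, C9, Mbl1, Mbl2, Cfd, C8g and Foxp3) were added after their values were seen, and some genes of the lists are not reported here by name. Windows of 100 bases of a transcript were called shared where the same bases occur in a transcript of another gene. Alternatives were DESeq2 1.42.0, the 2 groups alone, median-of-ratios scaling, library size, no filter, at least 10 counts in every library, a sex covariate (from Xist and Ddx3y), and leaving out each mouse.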

Additional observations from a re-analysis of the deposited data

How the results depend on the processing

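The 9 of 9 components higher in ΔTreg skin against control, ΔLTreg and ΔETreg skin stood in every setting and with every mouse left out. For ΔLTreg against control skin (0 of 9), 1 component passed with no filter beyond 1 count and 1 with DESeq2, and 0 to 2 with a mouse left out. For ΔETreg against ΔLTreg skin (0 of 9), 3 passed with no filter, 1 with DESeq2, and 0 to 3 with a mouse left out, the upper values of both ranges without ΔLTreg replicate 3. Of the 29 further complement genes, the 2 past adjustment in ΔLTreg against control skin became 5 with no filter, 0 with the 2 groups compared alone and 0 to 3 with a mouse left out (0 without control replicate 1 and 1 without control replicate 2), and the 2 in ΔETreg against ΔLTreg skin became 4 with no filter, 1 with the 2 groups alone and 2 to 3 with a mouse left out. The unfiltered fit keeps genes with very few counts, and the cause of its extra calls and very small p-values was not tested. Signs turned only for changes that had missed the threshold. With library size alone the log2 fold change was 0.00809 for C1qa (ΔETreg against control) and 0.0126 for C1qc (ΔETreg against ΔLTreg), and the latter was 0.00180 with no filter. With sex as a covariate it was 0.0188 for C1qa and 0.00696 for C1qc (ΔETreg against control), and 0.15 for C1qc and 0.0572 for Serping1 (ΔETreg against ΔLTreg). With a mouse left out, the log2 fold changes that turned sign in ΔETreg against control skin ran from -0.11 to 0.10 for C1qa, from -0.18 to 0.0676 for C1qb, from -0.13 to 0.11 for C1qc, from -0.0441 to 0.19 for C1ra, from -0.25 to 0.10 for C2, from -0.74 to 0.58 for C3, from -0.0453 to 0.52 for C4b. With a mouse left out, the log2 fold changes that turned sign in ΔLTreg against control skin ran from -0.25 to 0.54 for C1qa, from -0.18 to 0.52 for C1qb, from -0.36 to 0.32 for C1qc, from -0.37 to 0.15 for C1ra, from -0.0597 to 0.30 for C2. With a mouse left out, the log2 fold changes that turned sign in ΔETreg against ΔLTreg skin ran from -0.56 to 0.23 for C1qa, from -0.60 to 0.10 for C1qb, from -0.35 to 0.33 for C1qc, from -0.0744 to 0.43 for C1ra, from -0.28 to 0.12 for Serping1. Fits that leave 1 control mouse assume that it varies like the mice of the other groups. No paired analysis was possible because the labels give the mice of different groups no shared replicate numbers.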

Other observations

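Across the 11 mice, the genes whose log2 CPM ran most like each component, among 13897 genes with a mean count of at least 50 are given here as a description. The 3 ΔTreg mice lie far from the other 8 and set these values. The closest gene was Fgd2 for C1qa (Pearson r = 0.990), Fcgr3, an Fc receptor, for C1qb (0.993), Selplg for C1qc (0.990), Cyba, a subunit of the phagocyte oxidase, for C1ra (0.987), Slco2b1 for C4b (0.994) and Slamf7 for Cfb (0.977). C2 and C3 had the same closest gene, Ifngr1, which encodes a chain of the interferon gamma receptor (0.995 for each), and Serping1 had Ppp1r18 (0.992) with C1s1 close behind (0.991).

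In the 8 mice outside the ΔTreg group, the C1q chains still ran together, with Pearson r of 0.984 for C1qa with C1qb, 0.983 for C1qa with C1qc and 0.972 for C1qb with C1qc. C4b ran less closely with them (r of 0.440 with C1qa and 0.339 with C1qc) and with C1ra (0.106), while its r with C3 was 0.875. These 8 libraries come from 3 groups and are too few and too mixed for a test.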
